A study of Mus musculus with 7 samples.

Results

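The transcripts described here encode 9 proteins of rod phototransduction: Gnat1, Gngt1, Pde6a, Pde6b, Pde6g, Sag, Pdc, Rcvrn and Cnga1. They are genes of the retina, measured here in RNA that was captured as lens epithelium. The 9 genes were chosen with earlier results of these data known, by name and not by a threshold on their values, and every probe set that the array's annotation pairs with one of these symbols alone was taken. That gave 13 of the 45037 probe sets that are not array controls, and 9 of 18193 genes with a single symbol.

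Lens epithelium was cut by laser capture, a microscope-guided dissection, from stained cryosections of mice without SPARC (SPARC-null, KO) and of littermates with it (wild-type, WT). All were on a C57Bl/6 background, 28 days old and normally housed. SPARC is a secreted glycoprotein that binds the collagen of the lens capsule, and the comparison asks which transcripts differ when it is missing. The KO group had 4 lenses of 3 animals (1L and 1R from animal 1, 4L and 7L) and the WT group 3 lenses of 3 animals (2L, 5L and 6L), each lens named by animal and eye. KO animal 7 was labelled male and the others female. The part of Sparc deleted in the null allele is not stated in the labels. Each lens was hybridised to its own array after 2 rounds of RNA amplification, and the values are linear signals, 1 per probe set. Because 1L and 1R share an animal, they were averaged on the log2 scale and n = 3 animals per group.

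Rods convert light into an electrical signal through a G protein cascade. The excited visual pigment activates transducin, whose alpha and gamma subunits are encoded by Gnat1 and Gngt1. Transducin releases the inhibitory gamma subunit (Pde6g) from the catalytic alpha and beta subunits (Pde6a and Pde6b) of the rod phosphodiesterase, cyclic GMP falls, and the cyclic GMP-gated cation channel, of which Cnga1 is a subunit, closes. Arrestin (Sag) stops the pigment, recoverin (Rcvrn) links calcium to pigment phosphorylation, and phosducin (Pdc) binds the transducin beta-gamma dimer. These proteins are known chiefly as products of photoreceptors.

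Rod genes are driven by the transcription factors CRX, a homeodomain protein, and NRL, a leucine zipper protein. RefSeq promoters (build GRCm38.p6, 250 bases before to 50 after a listed start site) were found for 5 of the 9 genes, and stretches of 4 of them are shown to place the letters searched. The CRX core TAATCC, or its reverse complement GGATTA, was present in 3 of the 5 promoters (Sag, Gngt1 and Cnga1) and in 7.06% of 32851 promoters of the same length. The NRL core TGCTGA, or TCAGCA, was present in 2 of the 5 (Sag and Pde6b) and in 19.5% of all promoters. The Pdc promoter held neither. Capitals mark these matches, and the sequences read 5′ to 3′ on the strand of the gene. The motifs do not overlap in these stretches, and a match is a description of letters and not of a binding event.
Sag, chr1:87803480-87803609, plus strand, from 200 to 71 bases before the start: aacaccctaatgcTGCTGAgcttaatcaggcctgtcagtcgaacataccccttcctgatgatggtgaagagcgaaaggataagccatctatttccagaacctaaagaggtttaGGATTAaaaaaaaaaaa
Gngt1, chr6:3993908-3994007, plus strand, from 100 to 1 bases before the start: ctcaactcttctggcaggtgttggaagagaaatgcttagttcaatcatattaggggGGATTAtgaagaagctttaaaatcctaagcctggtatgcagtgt
Cnga1, chr5:72642903-72643002, minus strand, from 250 to 151 bases before the start: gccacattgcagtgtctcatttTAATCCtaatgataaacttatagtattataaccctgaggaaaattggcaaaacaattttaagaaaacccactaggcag
Pde6b, chr5:108388273-108388372, plus strand, from 100 to 1 bases before the start: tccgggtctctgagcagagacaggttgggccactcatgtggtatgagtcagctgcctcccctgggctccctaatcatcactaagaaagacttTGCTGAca

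The labels and arrays were checked first. At the brightest probe set of Sparc, KO lenses gave signals of 8.14 to 70.5 and WT lenses of 27370.5 to 49971.5. The highest of 27 bacterial control probe sets with no mouse target reached 45.5, which served as the gauge of background. Of 8 lens markers, 7 lay above that level in all 7 lenses, with Cryaa, the alpha A crystallin, at 19270.6 to 38200.6. Foxe3, a transcription factor of the lens epithelium, lay above it in 3 of 7. Each array had a trimmed mean of 500.003 or 500.004. The array of WT lens 2L had a highest signal of 28328 against 42152.8 to 53055.7 on the others, so quantile normalization raised its bright probe sets. The Gapdh 3′ to 5′ signal ratio, which rises as RNA degrades, had its lowest value in 2L (3.75), against 9.06 to 15.9 elsewhere.

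In all 7 lenses, all 13 rod gene probe sets exceeded the brightest bacterial control. The lowest value was 94.0, at the dimmest Gngt1 probe set in WT lens 6L. By rank within an array, the brightest probe sets of the 9 genes lay between the 78.4th and the 99.5th percentile. Rod transcripts were therefore measured above background in every KO and every WT lens. Probe sets differ in how strongly they bind, so signals are compared between lenses and not between genes.

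Transducin was read through Gnat1, its alpha subunit, and Gngt1, its gamma subunit. Gnat1 signals were 20554.5 (1L), 13062.8 (1R), 14574 (4L) and 14739.9 (7L) in KO, and 14031.3 (2L), 21205.7 (5L) and 11808.8 (6L) in WT. Lenses 1L and 5L were high, 6L was lowest, and in signal the WT lenses enclosed the KO lenses. Normalization moved 2L up to 14.21, beside 14.25 in 1L and 14.22 in 5L. The WT lenses then no longer enclosed the KO lenses. On the normalized log2 scale the Gnat1 mean was 13.89 ± 0.19 for KO and 13.94 ± 0.47 for WT (SD, n = 3 animals), a difference of -0.06 (SE 0.25, 95% interval -0.62 to 0.50).

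Gngt1 had 4 probe sets, and they did not rank the lenses alike. At the brightest the signals were 5797.95 (1L), 3596.93 (1R), 3468.06 (4L) and 3573 (7L) in KO, and 849 (2L), 4306.05 (5L) and 2904.21 (6L) in WT. Lens 2L stood far below the rest and 1L above, and 5L lay between KO lenses. The means were 11.91 ± 0.23 in KO and 11.07 ± 1.24 in WT (difference 0.84, SE 0.50, 95% interval -0.27 to 1.96). Without WT animal 2 the difference was 0.14, and without WT animal 5 it was 1.33.

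The next brightest Gngt1 probe set gave 6252.57 in 1L and 1504.68 to 3320.56 in the other lenses, and the one after it gave 1643.37 in 1L and 368 to 829 elsewhere. Both had 1L highest and 6L lowest, with KO minus WT differences of 0.31 and 0.30. The dimmest had the opposite order within animal 1, at 138 in 1L and 339 in 1R, and differed by -0.15. A direction for Gngt1 between KO and WT was not resolved.

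The catalytic subunits of the phosphodiesterase had similar profiles over the lenses (Pearson r 0.77 over 7 lenses, a description). Pde6a, the alpha subunit, gave 792 (1L), 918 (1R), 852 (4L) and 872 (7L) in KO, and 1217.06 (2L), 1149.29 (5L) and 569 (6L) in WT. The KO lenses were close together, and the WT lenses lay on both sides of them. The log2 means were 9.77 ± 0.03 and 9.88 ± 0.55 (SD, n = 3; difference -0.11, SE 0.28, 95% interval -0.74 to 0.52).

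Pde6b, the beta subunit, gave 11448.1 (1L), 7800.38 (1R), 8031.56 (4L) and 9988.03 (7L) in KO, and 11980.4 (2L), 12109.2 (5L) and 5823.95 (6L) in WT. Here too 6L was lowest and 2L and 5L were high. The log2 difference was -0.12 (SE 0.34, 95% interval -0.89 to 0.64), and without WT animal 2 it was 0.20.

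Pde6g, the inhibitory gamma subunit, had the lowest unadjusted p of the 9 genes. Its brighter probe set gave 9961.45 (1L), 1983.08 (1R), 5397.97 (4L) and 4084.19 (7L) in KO, and 6857.54 (2L), 10587.2 (5L) and 4982.37 (6L) in WT. Lenses of both eyes of animal 1 were far apart, with 1L near the top WT lens and 1R below all others, and the groups overlapped. The means were 12.16 ± 0.17 in KO and 12.81 ± 0.52 in WT (SD, n = 3; difference -0.64, SE 0.26, 95% interval -1.23 to -0.06; limma unadjusted p = 0.0343, adjusted p = 0.99988).

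The small KO spread of Pde6g rests on averaging 1L and 1R, which differed by 2.26 on the log2 scale, or 5.02-fold in signal. With the left lens of that animal alone the KO minus WT difference was -0.27, and with the right alone -1.02. Without WT animal 5 it was -0.42, and without WT animal 6 -0.93. The other Pde6g probe set gave 3054.76 in 1L and 640 in 1R, a 4.77-fold ratio, with 1521.9 and 1107.46 in 4L and 7L. Its WT signals were 3236.55 (2L), 3211.49 (5L) and 1185.12 (6L), and it differed by -0.79 (SE 0.36, limma unadjusted p = 0.0537). Both probe sets thus gave the same large gap between the eyes of one animal.

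Cnga1, the channel subunit, gave 2956.27 (1L), 2643.53 (1R), 1715.69 (4L) and 3080.14 (7L) in KO, and 3464.19 (2L), 3959.63 (5L) and 1838.41 (6L) in WT. The low lenses were 4L and 6L, 1 of each genotype. The log2 means were 11.29 ± 0.43 and 11.52 ± 0.58 (SD, n = 3; difference -0.24, SE 0.32, 95% interval -0.95 to 0.47).

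Sag, the rod arrestin, gave 15771.7 (1L), 12039 (1R), 11459.5 (4L) and 12499.4 (7L) in KO, and 11313.5 (2L), 16935.8 (5L) and 9382.78 (6L) in WT. All KO lenses lay between the highest and lowest WT lens. Normalization moved 2L up, to 13.83 beside 13.89 in 1L and 13.92 in 5L. The means were 13.62 ± 0.22 and 13.62 ± 0.44 (SD, n = 3), and the difference was 0.0017 (SE 0.25, 95% interval -0.55 to 0.55).

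Pdc, the phosducin gene, gave 15955.6 (1L), 16725.5 (1R), 14869.8 (4L) and 15085 (7L) in KO, and 13824.7 (2L), 20660.3 (5L) and 12828.1 (6L) in WT. It varied least of the 9 genes, with a 1.61-fold ratio of highest to lowest signal. Normalization moved 2L from a low place in signal to 14.18, level with 5L (14.18). Its log2 difference was -0.06 (SE 0.23, 95% interval -0.57 to 0.45).

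Rcvrn, the recoverin gene, gave 7706.08 (1L), 3515.76 (1R), 5529.47 (4L) and 3744.43 (7L) in KO, and 4082.6 (2L), 8532.65 (5L) and 5024.32 (6L) in WT. As for Pde6g, 1L and 5L were high and 1R was lowest. The log2 difference between genotypes was -0.22 (SE 0.27, 95% interval -0.82 to 0.37).

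**Figure D1:**
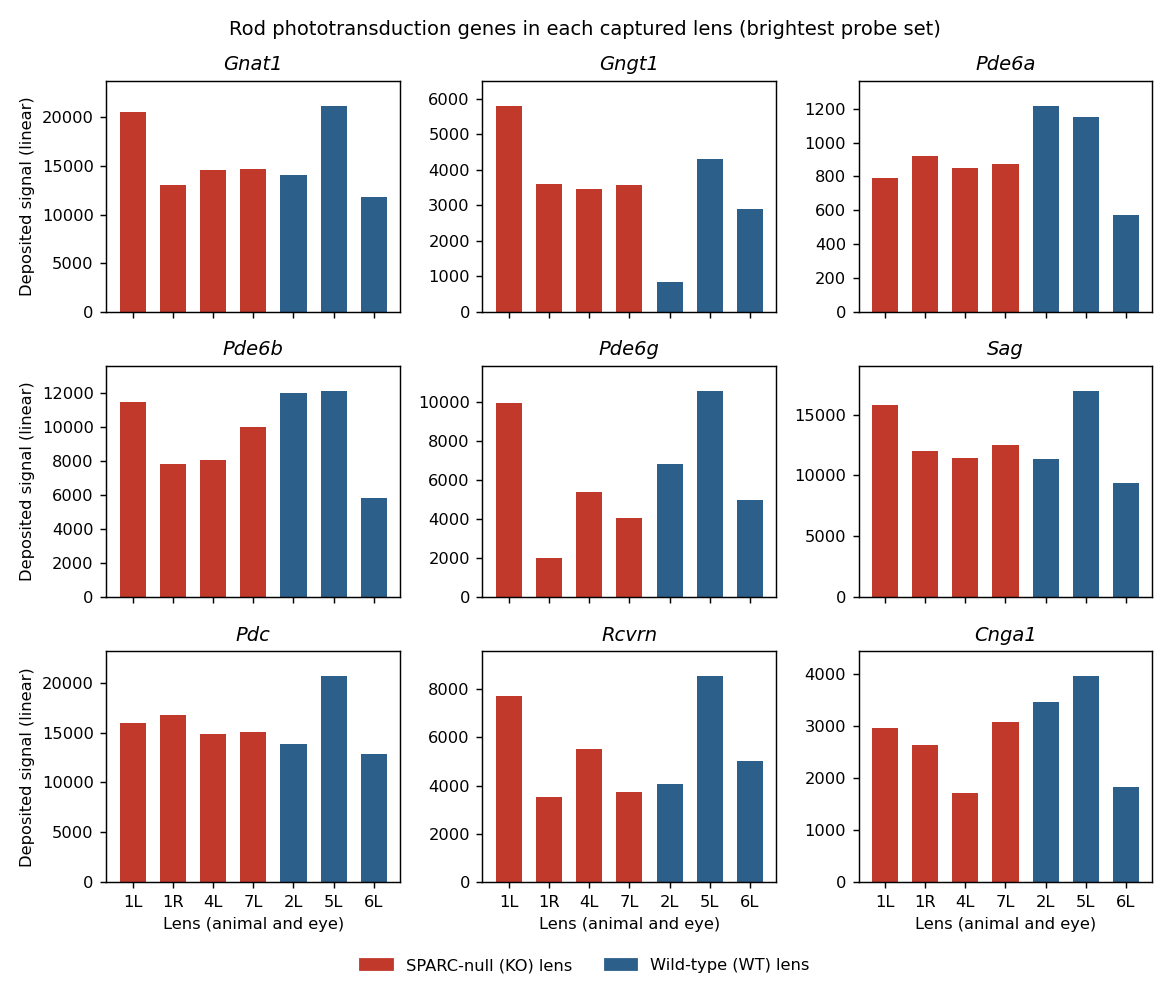
Deposited linear signal of the brightest probe set of each of the 9 genes (vertical axis, from 0, scaled per gene) in each lens (horizontal axis), with KO lenses in red and WT lenses in blue. WT lens 5L is highest for 7 of the 9 genes in these signals, WT lens 2L is lowest for Gngt1 at 849, and KO lens 1R is lowest for Pde6g at 1983.08.

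Between genotypes, 0 of the 13 probe sets passed the test (limma over all probe sets, Benjamini-Hochberg adjusted p = 0.99988 for each). Of all probe sets 3 passed, or 0.00666%, and 2 of these were probe sets of Sparc itself (limma adjusted p = 3.4e-06 and 1.1e-05). Read at the brightest probe set of each of 18193 genes, 1 gene passed, and it was Sparc. At an unadjusted p under 0.05 there was 1 of 13, the brighter Pde6g probe set, against 4.06% of all probe sets. KO and WT lenses overlapped at all 13, while they did not overlap at 5.33% of all probe sets. Of the 9 genes, 2 had higher and 7 lower values in KO. Their median log2 difference was -0.11, beside -0.03 over all genes. The intervals of Gnat1, Sag and Pdc were the tightest of the 9, with bounds within 0.62 of 0 in either direction, and that of Gngt1 reached 1.96. A p that misses the threshold does not show that the genotypes are alike, and smaller differences were not resolvable with 3 animals against 3.

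**Figure D2:**
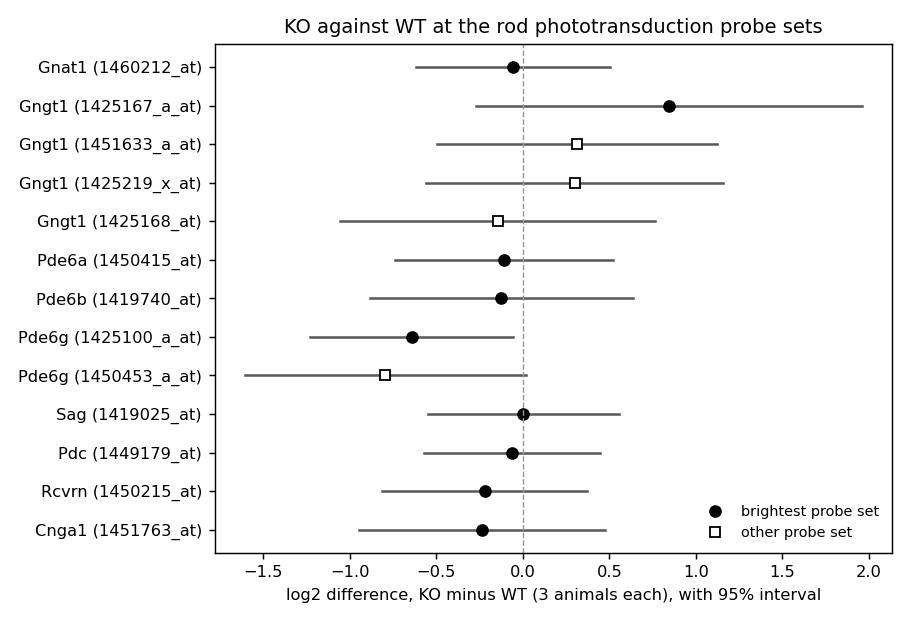
Log2 difference, KO minus WT (horizontal axis), at each of the 13 probe sets (vertical axis), with 95% intervals from the limma fit over 3 animals per group; filled circles are the brightest probe set of a gene and open squares the others, from bright to dim. The interval includes 0 at 12 of 13, and at the brighter Pde6g probe set it runs from -1.23 to -0.06 before any adjustment.

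The level of the rod genes differed between lenses within both genotypes. Averaged over the 9 genes, each centred on its mean of the 7 lenses, the log2 level was 0.43 in 5L, 0.34 in 1L, 0.05 in 2L, -0.0006 in 7L, -0.18 in 4L, -0.23 in 1R and -0.41 in 6L. The highest and the lowest lens were both WT. By animal the mean was -0.04 ± 0.12 in KO and 0.02 ± 0.42 in WT (SD, n = 3), and the averaging of 1L and 1R narrowed the KO spread. In bulk RNA, fewer rod cells and less RNA per cell cannot be told apart.

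On the normalized scale 6 of the 9 genes had their highest value in 5L and 5 had their lowest in 6L. These lenses are the highest and the lowest by the mean of these same genes, so their contrast follows from that choice and is a description. All 9 were higher in 5L than in 6L, with a median difference of 0.82. Over 4948 genes at or above the level of the dimmest of the 9, the median difference between these lenses was -0.01. The median size of that difference, of either sign, was 0.19. In signal, the ratio of 5L to 6L ran from 1.48 for Gngt1 to 2.15 for Cnga1.

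Between the eyes of KO animal 1, 7 of the 9 genes were higher in 1L than in 1R, with a median difference of 0.51. For Pde6g the difference was 2.26 and for Rcvrn 1.08, while it was 0.30 for Sag, -0.15 for Pdc and -0.20 for Pde6a. Over the 4948 genes at or above the dimmest rod gene, the median difference between these eyes was 0.0004. Its median size, of either sign, was 0.39. In the order of the lenses from the highest to the lowest rod level, the Gapdh ratio was 9.06 (5L), 12.7 (1L), 3.75 (2L), 9.885 (7L), 10.61 (4L), 15.9 (1R) and 15.9 (6L). It was highest in the last pair of lenses and showed no steady order over the others. For beta-actin, this ratio came to 19.1 in 1L and 15.1 in 1R, and to 16.4 in 5L and 23.8 in 6L, the opposite of the Gapdh order within animal 1. The part of RNA integrity in the differences between lenses was not tested.

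**Figure D3:**
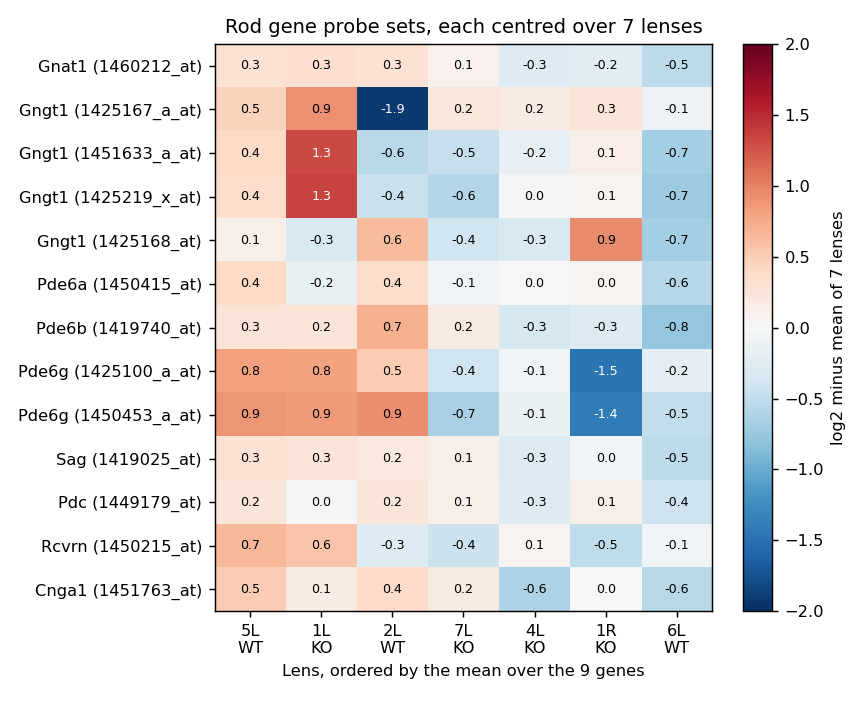
Normalized log2 value minus the mean of the 7 lenses (colour and printed number) for each of the 13 probe sets (rows) and lenses (columns, from the highest to the lowest mean over the 9 genes, with genotype below). Lens 5L is at the left and 6L at the right, both WT, and single strong departures stand at Gngt1 in 2L and at both Pde6g probe sets in 1R.

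Over the 7 lenses, 29 of the 36 pairs of these genes had a Pearson r above 0, with a median of 0.50 and a range of -0.39 to 0.97. The points share arrays and their scaling, 1L and 1R share an animal, and these values are a description. Gnat1 and Sag were the most alike pair (0.97), and Pdc and Cnga1 followed Sag closely (0.88 and 0.93). Pde6g followed Rcvrn (0.80) and Pdc little (0.15). Against the mean of the other 8, Gnat1 had the highest r (0.90) and Gngt1, read at its brightest probe set alone, the lowest (-0.12). That probe set was low in 2L, where most of the other genes were not. The next brightest Gngt1 probe set had its highest value in 1L and its lowest in 6L.

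Of 24 other genes of the rod cascade and outer segment, 21 had a probe set with a single symbol. For 19 of these the brightest probe set exceeded every bacterial control in all 7 lenses. The exceptions were Gucy2e, a retinal guanylate cyclase, above it in 1 lens, and Grk1, the pigment kinase, at 8.69 to 39.5 and above it in none. In KO, 4 had higher and 17 lower values (median log2 difference -0.21), and 0 passed (limma adjusted p over all probe sets; 0 also at an unadjusted p under 0.05). Prph2, a disc rim protein picked out after its values were seen, was the single one whose lenses did not overlap, lower in KO (difference -0.48, limma unadjusted p = 0.0657). That is 1 of 21 genes, against 5.33% of all probe sets, a share near the background. Guca1b, a calcium sensor that regulates guanylate cyclase, was 12693.8 in 5L and 5567.44 in 6L, the order also seen for the 9 genes. The mean of these 21 genes followed that of the 9 over the lenses (r = 0.87, a description over 7 lenses). The 4 measured transcription factors of photoreceptors, Crx, Nrl, Otx2 and Neurod1, lay above the control in all lenses, and Nrl had its lowest signal in 6L (4446.72, elsewhere 5730.6 to 9680.64).

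Cone genes followed a similar order of lenses (r = 0.87). Of 9 measured, 8 lay above the control in all lenses, and their summed signal ran from 5126.04 to 13047.7 over KO lenses and from 6497.18 to 16899.5 over WT lenses. Gnat2, the cone transducin alpha subunit, was 5163.19 in 5L and 2145.97 in 6L, and 3243.31 in 1L and 1491.25 in 1R. In KO, 1 cone gene had higher and 8 had lower values (median log2 difference -0.35). In limma 0 passed the adjusted threshold and 2 had an unadjusted p under 0.05, against 4.06% of all probe sets. The summed signal of the 9 rod genes ran from 62284.6 to 90944.1 over KO lenses and from 55162.3 to 99445.8 over WT lenses.

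Markers of other retinal cells had lower correlations with the rod genes. The r with the rod mean was 0.09 for 8 bipolar cell genes, 0.10 for 7 genes of Muller glia and -0.27 for 9 genes of amacrine, ganglion and horizontal cells. For the last list the summed signal ran from 3790.95 to 4506.43 over KO lenses and from 1602.67 to 2418.38 over WT lenses, and 9 of its 9 genes had higher values in KO (median 1.01), with 0 past the adjusted threshold and 5 at an unadjusted p under 0.05 in limma, against 4.06% of all probe sets. Bipolar cell genes had higher values in KO at 8 of 8 (median 0.58, 2 at an unadjusted p under 0.05), and those of Muller glia at 6 of 7 (median 0.31, 3 at an unadjusted p under 0.05), with 0 past the adjusted threshold in limma in both lists. The 9 rod genes had a median of -0.11 in the same comparison. Counts and medians of every list read each gene at its brightest probe set alone. Dimmer probe sets of these genes went both ways, for instance lower in KO for Prkca and Aqp4 and higher for Trpm1 and Nefl. Whether these lists differ in their response was not tested.

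The pigment epithelium, which adjoins the rod outer segments, also differed. Its 6 genes were all higher in 5L than in 6L (median 0.91), as the rod genes were, but all were lower in 1L than in 1R (median -0.90), where 7 of the 9 rod genes were higher. Their summed signal ran from 15339.3 to 25186.8 over KO lenses and from 10987.9 to 40943.8 over WT lenses, of which Ttr alone made up 83.1% to 93.8%. Without Ttr the sum of the other 5 genes ran from 947 to 1928.38 over KO lenses and from 1860.44 to 4317.11 over WT lenses. All 6 pigment epithelium genes had lower values in KO (median log2 difference -0.47). In limma 0 passed the adjusted threshold and 2 had an unadjusted p under 0.05, against 4.06% of all probe sets. All 6 skeletal muscle genes were higher in 5L than in 6L (median 1.14), and 5 in 1L than in 1R (median 0.96). Their mean had an r of 0.54 with the rod mean, a description over 7 lenses. The 5 melanin synthesis genes were also all higher in 5L than in 6L (median 0.88), but 1 was higher in 1L than in 1R (r = 0.18). Skeletal muscle genes ranged more widely than rod genes, with a summed signal of 9324.3 to 40565.1 in KO and 7509.07 to 53000.8 in WT. Their mean centred log2 level was -1.42 to 1.70 over the lenses. For the mean over the 8 lens genes that level was -0.21 to 0.11, while single lens genes moved more. The log2 value of Foxe3 ran from 4.78 in 7L to 7.10 in 2L, but it lay above the bacterial control in 3 of 7 lenses, so part of that range is at background. Above the bacterial control in all 7 lenses were 5 of 6 pigment epithelium genes, 6 of 6 skeletal muscle genes and 7 of 8 lens genes. Some genes of the marker lists are made in more than 1 tissue, such as Ttr, Apoe and Pax6. The part of captured retina or muscle in the rod gene levels was not tested.

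**Figure D4:**
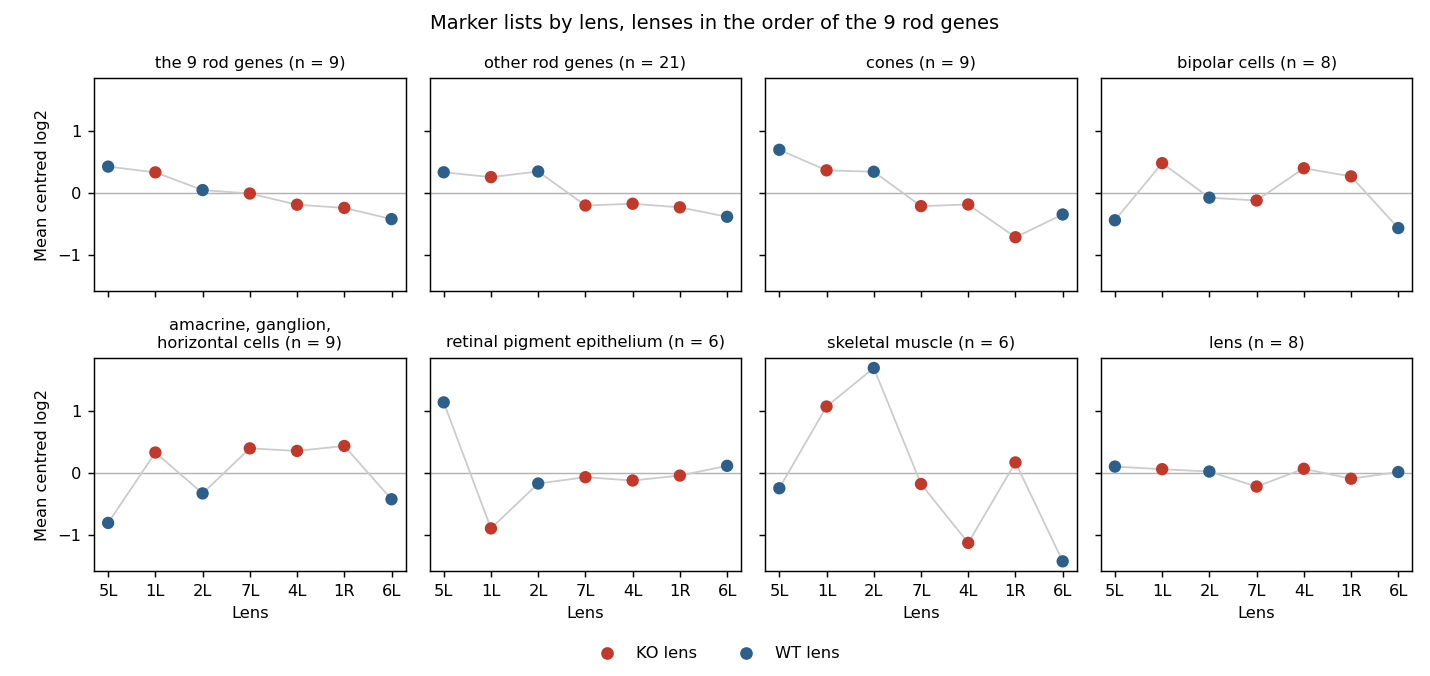
Mean over a list of log2 values, each gene centred on its 7 lenses (vertical axis), for 8 marker lists (panels) in each lens (horizontal axis, in the order of the rod genes from high to low), with KO in red and WT in blue. The means of other rod genes and of cones are higher in 5L, 1L and 2L than in the other lenses, with 5L at 0.70 and 1R at -0.71 for cones. The mean of amacrine, ganglion and horizontal cell genes is higher in all 4 KO lenses than in the 3 WT lenses. Taken singly, 4 of these 9 genes did not overlap between genotypes, against 5.33% of all probe sets.

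Among 11695 other genes brighter than the median probe set, the 10 whose profile over the 7 lenses was most like the mean of the rod genes had Pearson r of 0.94 to 0.99. They were Tmem150c, Egflam, AI847159, Plcl2, Ppm1b, Idh1, Guca1b, St6galnac2, Ramp2 and Slc1a2. These values rest on 7 points and are a description only. Egflam, the gene of pikachurin, a matrix protein of the photoreceptor synapse, had a log2 value of 9.49 in 5L, 9.30 in 1L and 8.12 in 6L (r = 0.97). Guca1b (r = 0.95) was the only one of the 10 that stood on a marker list used here.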

How the data were processed

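The authors deposited linear intensity values, with 1 summarised value for each probe set of the mouse array and equal trimmed means on all arrays. The software for this step is not given in sources used here. Per the labels' protocols, RNA was extracted from captured cells with a column kit, amplified in 2 cycles and labelled with biotin. Such amplification favours probe sets near the 3′ end of a transcript.

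After 64 control probe sets were left out, signals were turned into log2(signal + 16), which understates changes of weak probe sets, and quantile normalized. Lenses 1L and 1R were averaged. KO and WT were compared with limma 3.58.1 (lmFit, eBayes with intensity trend, two-sided) under R 4.3.3. Benjamini-Hochberg adjustment ran over 45037 probe sets, with 0.05 as threshold. The code was tested on simulated data. The animals are separate mice of 1 litter.

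The annotation of the platform gave 34945 probe sets 1 symbol, 932 several and 9160 none. All 9 genes were found by gene number in the RefSeq table of GRCm38.p6. The files name no build.

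The genes named were every one of the 9 with all probe sets, the brightest leading, up to 3 of the brightest per marker list where a result turned on them, and the 10 genes most alike. Outside that rule, Foxe3, Grk1, Gucy2e, Prph2 and the photoreceptor transcription factors were singled out after their values were seen. The members and lists were chosen with earlier results of these data known. Alternatives were other pseudocounts (1 and 64), other normalizations, a low-value filter, no trend, array weights, other uses of the lenses of animal 1, and leaving out each animal.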

Additional observations from a re-analysis of the deposited data

Results flagged for a closer look

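Among the 4 KO lenses, 2 of the 4 Gngt1 probe sets had 1 lens far from the rest. At the brightest probe set lens 1L lay apart, with a gap to the next lens of 0.878 of the group's whole range, and at the dimmest lens 1R did, with a gap of 0.933. Both exceed the Dixon 95% critical value for 4 samples. In all, 14 such groups were looked at, and chance marks about 1 in 20. Both lenses belong to KO animal 1, so the 4 lenses are not independent.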

How the results depend on the processing

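Under all 17 alternatives that gave a value for it the median over the 9 genes moved by less than the spread between animals (0.312). In limma, 0 of the 13 rod probe sets passed under any of the 16 alternatives that were tested. Over the brightest probe set of each gene, the lowest adjusted p was 0.662 (Pde6g, array weights). The median was 0.05 without WT animal 2, 0.06 without WT animal 5, 0.02 without KO animal 4 and -0.33 without WT animal 6. Directions of the small differences were not stable: of 144 gene values 20 changed sign, none for Gngt1 or Pde6g. Sag became -0.0487 with median centring, -0.0484 with 1R in place of the mean of 1L and 1R, and negative without KO animal 1 (-0.0573), KO animal 7 (-0.0662) or WT animal 6 (-0.253). With the signals as deposited Gnat1 was 0.000842 and Pdc 1.63e-05, and Gnat1 was 0.0336 with 1L in place of that mean. With each animal left out in turn, the differences ran from -0.326 to 0.0822 for Gnat1, -0.424 to 0.0564 for Pde6a, -0.541 to 0.199 for Pde6b, -0.253 to 0.153 for Sag, -0.277 to 0.0493 for Pdc, -0.406 to 0.0554 for Rcvrn and -0.570 to 0.0112 for Cnga1. For Gngt1 they ran from 0.145 (without WT animal 2) to 1.33 (without WT animal 5; limma unadjusted p = 0.0197, adjusted p = 0.9998), and for Pde6g from -0.930 (without WT animal 6; limma unadjusted p = 0.00307, adjusted p = 0.9998) to -0.422 (without WT animal 5). The number of probe sets called over the whole table was 2 or 3. The animal as a random block could not be fitted, since only 1 animal gave 2 lenses. No paired analysis was possible because the groups share no replicate numbers.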
